A study of Mus musculus with 45 samples.

Results

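Isl1, Tlx3, Pou4f1 and Pou4f2 are 4 homeobox genes that mark sensory neurons, and their mRNA levels were followed in mouse embryonic stem cells (mESCs) on their way to spinal dorsal interneurons. The genes were taken by their symbols, not by their values, and all 4 were found among the 11220 genes of the deposited expression table. Bulk RNA sequencing covered 45 cultures in 15 groups of 3. The table lists only genes that passed the authors' own threshold, a false discovery rate of 0.1, in some comparison of theirs, so it holds no gene that they found stable throughout.

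All groups started from mESCs (day 0, D0), which were grown over the first days with basic FGF and the GSK3 inhibitor CHIR to become neuromesodermal progenitors (day 3, D3). From day 3 the cells took 1 of 3 paths. M cultures received 100 nM retinoic acid (RA) and 10 ng/ml of the morphogen BMP4 together for 48 h, and were sampled on days 4, 5, 7 and 9 (M4, M5, M7 and M9). B cultures received RA alone for 24 h and then RA with BMP4 for 24 h, and were sampled on days 5, 7 and 9 (B5, B7 and B9). R cultures received RA alone for 48 h, and were sampled on days 4, 5, 7 and 9 (R4, R5, R7 and R9). The day 4 samples were taken after 24 h of treatment. A further pair of groups was taken on day 4.25, B6hr after 6 h of BMP4 and R6hr without it. The labels name neither the mESC line nor its genotype, and their wording of the RA interval differs by 1 day between fields. The series' design text speaks of 3 independent differentiations, but whether equal replicate numbers stand for the same differentiation is not stated.

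In the developing dorsal spinal cord, BMP signals from the roof plate and RA from the neighbouring mesoderm divide progenitors into classes named dI1 to dI6, each of which gives neurons with its own set of homeodomain transcription factors. Isl1, a LIM-homeodomain factor, marks dI3 interneurons and also motor neurons, peripheral sensory neurons and cardiac progenitors. Tlx3 is a homeobox selector of the excitatory fate in dI3 and dI5 neurons and is also made by peripheral sensory neurons. Pou4f1 (Brn3a) and Pou4f2 (Brn3b) are POU-homeodomain factors: Pou4f1 is shared by dI1, dI2, dI3 and dI5 neurons and by sensory ganglia, and Pou4f2 is best known from retinal ganglion cells and is made in some sensory neurons. No single gene of the 4 therefore names 1 cell type, and in bulk RNA fewer cells of a type and less RNA per cell cannot be told apart.

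The 4 genes lie on different chromosomes, all on the minus strand of mm10, and all are protein coding with no annotated gene overlapping them. Isl1 (ENSMUSG00000042258) spans chr13:116298281-116309689 and its coding transcripts have 6 exons. Tlx3 (ENSMUSG00000040610) spans chr11:33200752-33203589 with 3 exons. Pou4f1 (ENSMUSG00000048349) spans chr14:104461676-104467999 with 3 exons in its coding transcript. Pou4f2 (ENSMUSG00000031688) spans chr8:78433010-78436645 with 2 exons. The start-site regions are shown because the 4 genes moved together in B7 against R7 and in opposite directions in M9 against R9. Each is the RefSeq sequence of GRCm38.p6 from 250 bases before to 50 bases after the start of the gene, 5′ to 3′ on the minus strand. Capitals mark the E-box CAGCTG and the SMAD-type motif GGCGCC, each of which reads the same on both strands; these 2 motifs do not overlap one another in any of the 4 sequences. The regions are chr13:116309639-116309938 for Isl1, chr11:33203539-33203838 for Tlx3, chr14:104467950-104468249 for Pou4f1 and chr8:78436598-78436897 for Pou4f2.
Isl1: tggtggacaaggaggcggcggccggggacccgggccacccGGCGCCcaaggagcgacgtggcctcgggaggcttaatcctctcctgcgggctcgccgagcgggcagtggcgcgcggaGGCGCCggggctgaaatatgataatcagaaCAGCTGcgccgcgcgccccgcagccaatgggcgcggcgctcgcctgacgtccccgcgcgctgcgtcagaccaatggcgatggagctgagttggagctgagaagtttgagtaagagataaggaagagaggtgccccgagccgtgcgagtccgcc
Tlx3: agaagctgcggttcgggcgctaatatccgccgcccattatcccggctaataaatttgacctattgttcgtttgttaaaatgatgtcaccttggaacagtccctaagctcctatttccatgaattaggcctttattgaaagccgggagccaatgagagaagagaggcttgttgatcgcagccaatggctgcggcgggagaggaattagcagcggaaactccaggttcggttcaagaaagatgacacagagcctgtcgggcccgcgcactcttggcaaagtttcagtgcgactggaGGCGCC
Pou4f1: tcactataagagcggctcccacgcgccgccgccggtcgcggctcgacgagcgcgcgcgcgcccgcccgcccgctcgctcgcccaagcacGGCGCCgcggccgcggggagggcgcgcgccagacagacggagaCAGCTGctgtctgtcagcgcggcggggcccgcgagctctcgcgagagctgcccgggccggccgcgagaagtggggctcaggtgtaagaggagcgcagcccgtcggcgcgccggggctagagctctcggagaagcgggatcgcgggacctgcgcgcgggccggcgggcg
Pou4f2: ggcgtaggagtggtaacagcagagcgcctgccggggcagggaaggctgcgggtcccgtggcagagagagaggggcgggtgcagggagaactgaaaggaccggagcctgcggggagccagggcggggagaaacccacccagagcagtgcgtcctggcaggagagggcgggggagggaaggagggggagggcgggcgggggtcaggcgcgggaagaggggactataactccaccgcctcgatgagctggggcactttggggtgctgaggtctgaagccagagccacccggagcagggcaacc

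GC content was 69.0% for Isl1, 78.3% for Pou4f1, 69.7% for Pou4f2 and 51.7% for Tlx3, against a median of 52.7% over 32851 mouse promoters of the same length. CAGCTG occurred once in Isl1 and once in Pou4f1, and 16.3% of all promoters hold it. GGCGCC occurred at 2 places in Isl1 and at 1 each in Pou4f1 and Tlx3, the last one at the 3′ end of the window, and 11.9% of all promoters hold it. Neither motif was in the Pou4f2 window. The E-box CAGATG, which 17.2% of promoters hold, and the homeodomain motif TAATTA, which 5.29% hold, were searched on both strands and were in none of the 4 windows. CCAAT, searched on both strands, was at 2 places each in Isl1 and Tlx3 and in neither Pou4f gene, and 37.4% of promoters hold it. These matches describe letters in a short window and say nothing of which factors bind there.

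Several libraries stood apart from their group before any of the 4 genes was considered. On day 3, the library numbered 1 had a level of 273 for the neuronal tubulin gene Tubb3 and 14602 for the mesoderm gene T, while the libraries numbered 2 and 3 had 5477 and 4967 for Tubb3 and 933 and 706 for T. On day 0, the library numbered 3 had a Pou5f1 level of 22336, while the other 2 had 3064 and 2678 for this pluripotency gene and also carried Tubb3 at 6071 and 8907. The day 0 and day 3 groups thus each mix libraries of unlike content, and some go against what their labels say: libraries labelled as undifferentiated cells carried high Tubb3, and 2 of the 3 labelled day 3 were low in T. Whether these labels are right cannot be told from the files. Comparisons with the 2 groups are given with and without those libraries. The other comparisons take their spread for each gene from 1 fit that holds these libraries too. Only fits of the compared libraries alone leave D0 and D3 out of that spread. On day 7, R7 number 3 had a Tubb3 level of 1090, against 4549 and 4900 in numbers 1 and 2. Over all genes, 5 of the 45 libraries correlated better with a library of another group than with any of their own, and the highest correlation between 2 libraries was 0.994.

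The highest levels of Isl1, Tlx3 and Pou4f1 in the whole series were in B7. Levels here are the authors' normalised values, which are not scaled to gene length, so they compare libraries and not genes. The group mean of Isl1 was 629 ± 126 in B7 and 31.2 ± 11.9 in R9, its lowest group (SD, n = 3 each). For Tlx3, B7 had 1542 ± 246 and M5, the lowest group, 17.9 ± 12.0, and for Pou4f1 B7 had 2121 ± 199 and M5, again the lowest, 84.2 ± 39.7. Pou4f2 was the exception: it was highest in D0 with 192 ± 74.2, then in B9 with 143 ± 41.2, which is its highest group if the unlike D0 libraries are set aside, and lowest in R5 with 1.44 ± 1.26. When the 15 groups were put in order of their mean, only 1 of the 14 neighbouring pairs had separate ranges for Isl1 (B7 above M7) and 1 for Tlx3, and 2 did for each Pou4f gene. The order between close groups was therefore not resolved by 3 libraries each.

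**Figure D1:**
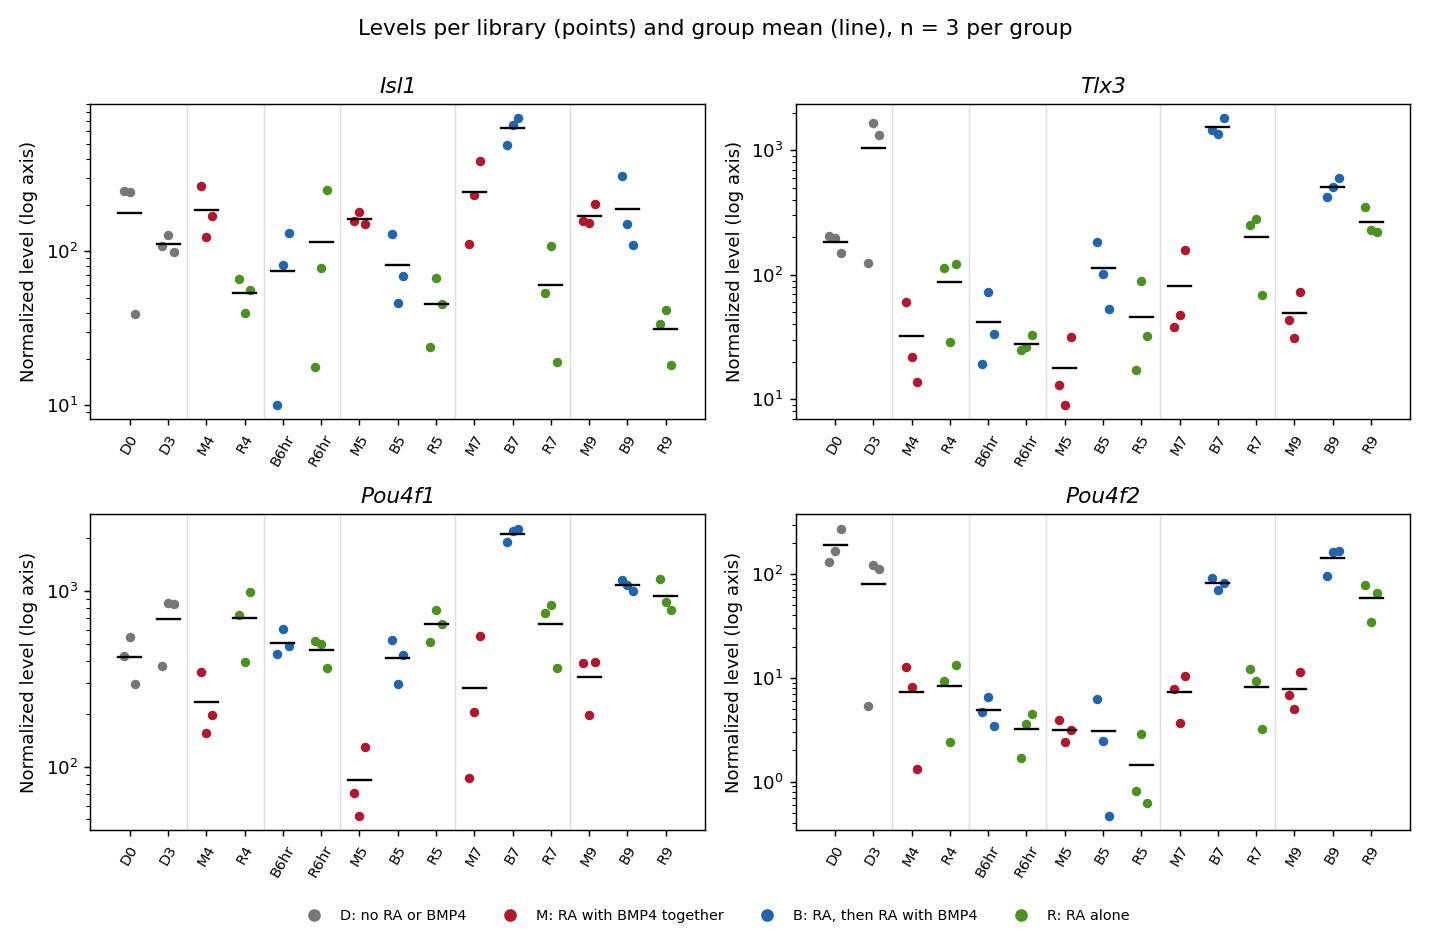
Deposited levels of the 4 genes by library on a log axis, with 1 panel per gene; points are libraries, bars are group means, and groups run by day with M left of B left of R. In B7 all 3 libraries lie between 489.5 and 733 for Isl1 and between 1348 and 1819.5 for Tlx3, and in M7 the Tlx3 libraries lie between 38.0 and 158.

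The effect of BMP4 given as a late pulse is read from B against R on the same day. On day 5, at the end of treatment, none of the 4 genes passed the test, in a comparison in which 5.99% of all genes did. All tests are limma fits on log2(level + 1) over all 45 libraries, with Benjamini-Hochberg adjusted p over the 11220 genes, and a gene is called under 0.05. Isl1 had levels of 129.9, 46.3 and 68.7 in B5, against 23.9, 67.5 and 45.6 in R5. Tlx3 had 184, 102 and 52.8 in B5, against 17.2, 88.5 and 32.0 in R5. The ranges of both genes overlapped. The log2 changes, with 95% intervals, were 0.81 (-0.76 to 2.38) for Isl1, 1.42 (-0.11 to 2.95) for Tlx3, -0.65 (-1.57 to 0.27) for Pou4f1 and 0.57 (-0.97 to 2.10) for Pou4f2. Both intervals for Isl1 and Tlx3 still hold rises above 2 on the log2 scale.

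On day 7 all 4 genes were higher in B7 than in R7, and for none of them did the libraries of the 2 groups overlap. Of all genes, 23.7% passed the test in this comparison, 12.1% upward, and 40.2% had separate ranges. The dI3 marker Isl1 had levels of 489.5, 664 and 733 in B7, against 53.4, 108.5 and 19.2 in R7. All 3 B7 libraries were more than 4 times the highest R7 library, and the log2 change was 3.65 ± 0.77 (SE, adjusted p = 0.0013). The excitatory selector Tlx3 had 1459, 1348 and 1819.5 in B7, against 250.5, 281 and 68.8 in R7, a log2 change of 3.17 ± 0.75 (adjusted p = 0.0034). Here too R7 number 3, the library low in Tubb3, was the lowest of the 6. Pou4f1, common to several dorsal classes, had 1894, 2201 and 2268 in B7, against 752, 834 and 365 in R7, a log2 change of 1.79 ± 0.45 (adjusted p = 0.0054). Pou4f2 had 92.8, 69.7 and 81.8 in B7, against 12.2, 9.36 and 3.18 in R7, a log2 change of 3.30 ± 0.75 (adjusted p = 0.0025). Its 3 B7 levels lay close together, while the R7 levels were low in all 3 libraries. The third Brn3 gene, Pou4f3, which is no member of the group studied, did the same: it had 71.3, 75.7 and 31.3 in B7, against 2.69, 3.32 and 4.28 in R7 (log2 change 3.68, adjusted p = 1.1e-06). All 4 calls held when any 1 of the 6 libraries was left out.

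The rise in B7 came with other marker genes, which were listed with earlier results of these data known. Of 8 dI1 and dI2 genes, 6 rose in B7 against R7 and 1 fell, with a median log2 change of 4.36 beside -0.01 for all genes: the dI1 factors Lhx9 (5.24), Barhl2 (5.09) and Barhl1 (4.93) and the dI2 and crest factor Foxd3 (4.86) rose, and Lhx1 fell by 2.58. Of 21 peripheral sensory neuron genes in the table, 10 rose and 1 fell (median 1.27), among them Shox2 (4.44), Neurod1 (4.02), the Isl1 paralogue Isl2 (3.12) and the peripheral intermediate filament gene Prph (2.07). Of 8 further dI3 and dI5 genes, by contrast, none rose and 2 fell (median -1.13): Lbx1, which specifies dI4 to dI6, by 2.34, and the Tlx3 paralogue Tlx1 by 1.76. Of 8 genes of inhibitory dorsal interneurons, 5 fell and none rose (median -1.55), with Pax2 falling by 3.58 and Pax8 by 2.05. The related genes moved unevenly: of 13 LIM and POU relatives and cofactors 3 rose, namely Tlx2 (4.77), Isl2 and Pou3f1 (1.97), and 1, Tlx1, fell.

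The sum of pan-neuronal genes, and some neural crest genes, also differed between B7 and R7. Summed over 12 pan-neuronal genes, levels ran between 55062 and 72172 in the B7 libraries, against 7408 and 25117 in the R7 libraries. Of these genes 4 rose and none fell (median 1.28): Tubb3 (3.07), Stmn2 (2.22), L1cam (2.02) and Nefl (1.41). Tubb3 made up much of the sum: its group mean was 24500 in B7, where the mean sum was 61065. In R7 it was 3513, where the mean sum was 18380. Of 11 crest and Schwann cell genes 5 rose and none fell (median 0.36), with Sox10 up by 2.64 and Erbb3 by 2.11. Sox10 had 1072, 1354 and 1317 in B7, against 303, 465 and 54.8 in R7. Summed levels of the whole crest list overlapped, at 6288 to 7819 in B7 and 3217 to 8905 in R7. Motor neuron genes gave 1 higher and 1 lower of 7 (median -0.44): Isl2 rose and the defining motor neuron gene Mnx1 fell by 1.92, with levels of 14.8 to 22.8 in B7, against 54.3 to 126 in R7. Summed levels of the motor neuron list, Isl2 included, were higher in B7, at 320 to 420, than in R7, at 197 to 265, with separate ranges. Isl2 carried that higher sum: its group mean was 258 in B7, where the mean sum was 367, and 30.9 in R7, where the mean sum was 231. The part of motor neurons, sensory ganglion cells and crest cells in the rise of the 4 genes was not tested.

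**Figure D2:**
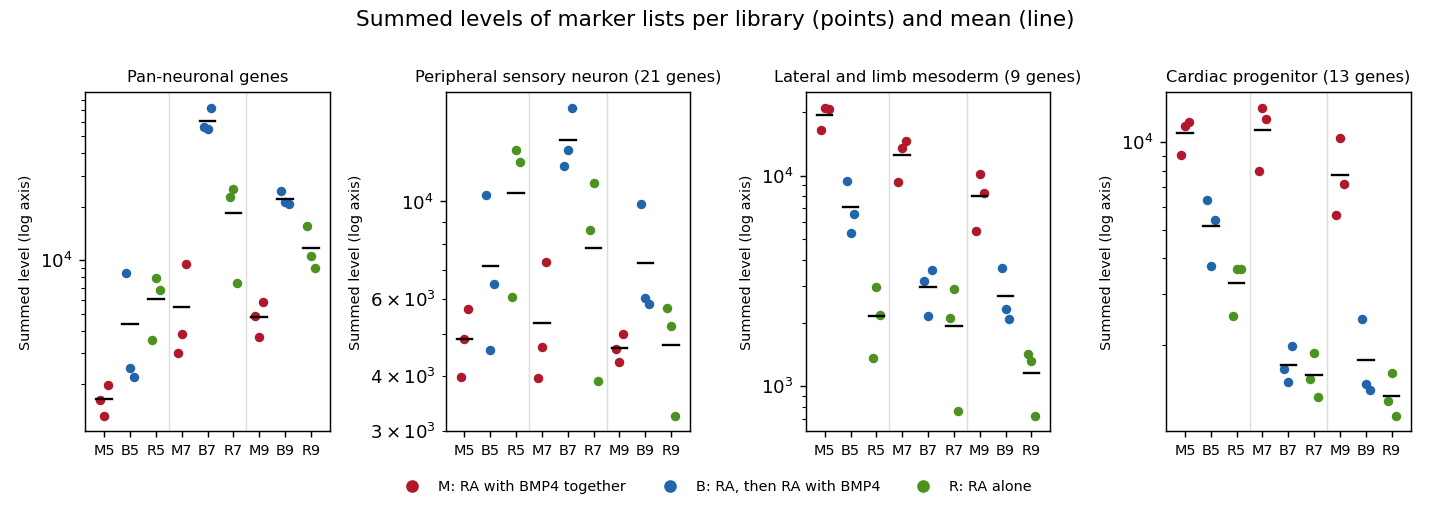
Summed levels of marker lists by library on a log axis, for M, B and R cultures on days 5, 7 and 9; each point is the sum over a list's genes in 1 library. Pan-neuronal sums are highest in B7 (55062 to 72172), and within each day lateral mesoderm sums are highest in the M group (16396 to 20991 in M5, against 5331 to 9388 in B5 and 1359 to 2950 in R5).

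How far the 4 genes moved beyond the neuronal genes was described by their log2 level minus the mean log2 level of the 12 pan-neuronal genes, a measure chosen after the values were seen. In B7 minus R7 the difference was 2.14 for Isl1, 1.66 for Tlx3 and 1.79 for Pou4f2, with separate ranges for each. For Pou4f1 it was 0.28 with overlapping ranges (exact permutation p = 0.40, two-sided; 3 libraries against 3 cannot go below 0.10). Pou4f1 thus stood in B7 at a level near that of R7 relative to the neuronal genes, while the other 3 stood higher. This was already so on day 5. In B5 minus R5 the difference was 1.47 for Isl1, 2.08 for Tlx3 and 1.23 for Pou4f2, with separate ranges, and 0.01 for Pou4f1 with overlapping ranges. The pan-neuronal mean was itself lower in B5, at 7.59, than in R5, at 8.24, with overlapping ranges. A gene of unchanged level would thus stand higher in B5 on this measure. The levels themselves overlapped and passed for none of the 4 on day 5. Pou4f2 was low on day 5, with group means of 3.08 in B5 and 1.44 in R5. The share of all genes with separate ranges on this measure was not computed.

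Within the B path, all 4 genes rose between day 5 and day 7, in a comparison in which 31.2% of all genes passed, 15.8% upward. Pou4f2 had 92.8, 69.7 and 81.8 in B7, against 6.29, 2.49 and 0.47 in B5, and its log2 change of 4.61 (adjusted p = 2.8e-05) was the largest of the 4. Tlx3 changed by 3.92 (adjusted p = 0.00018), Isl1 by 3.04 (adjusted p = 0.0030) and Pou4f1 by 2.37 (adjusted p = 0.00017), each with separate ranges, as had 42.6% of all genes. In the same comparison 11 of 12 pan-neuronal genes rose (median 3.66), 11 of 21 peripheral sensory genes rose, and 4 of 9 lateral mesoderm genes fell. Within the R path none of the 4 passed between day 5 and day 7, where 11.2% of all genes did. Tlx3 had 250.5, 281 and 68.8 in R7, against 17.2, 88.5 and 32.0 in R5, with overlapping ranges (log2 change 2.17, adjusted p = 0.056). Pou4f2 had a change of 1.88 there (adjusted p = 0.10). Whether the 2 paths differ in their change from day 5 to day 7 was tested directly, and only Pou4f1 passed, by 2.44 ± 0.64 (adjusted p = 0.035), where 1.99% of all genes did. The same difference was 2.84 for Isl1, 2.74 for Pou4f2 and 1.75 for Tlx3 (adjusted p = 0.20, 0.21 and 0.48). Relative to the pan-neuronal genes, Pou4f1 stood lower on day 7 than on day 5 in both paths. Its means on that measure were 1.09 in B5 and -0.18 in B7, and 1.08 in R5 and -0.46 in R7.

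On day 9 Isl1 alone of the 4 genes was higher in B9 than in R9 by the test; 1 of 4 passed in B9 against R9, where 11.8% of all genes did. Isl1 had 307, 151 and 110.0 in B9, against 33.9, 41.5 and 18.2 in R9, a log2 change of 2.50 ± 0.77 (adjusted p = 0.030). The groups were separate, but B9 number 1 was the highest by far, and the call was lost without that library (2.09, adjusted p = 0.13), without B9 number 2, or without any 1 R9 library (adjusted p = 0.052 to 0.13). Pou4f2 had 95.8, 165 and 169 in B9, against 78.7, 34.3 and 65.4 in R9, and Tlx3 had 425, 510 and 600.1 in B9, against 353, 228 and 221 in R9. Both were separate, as were 35.3% of all genes, yet neither passed (log2 changes 1.29 and 0.95, adjusted p = 0.27 and 0.44). A fit of the 6 libraries alone called Tlx3 (adjusted p = 0.034). Pou4f1 had 1150, 1090 and 1008 in B9, against 1172, 862 and 783 in R9, with overlapping ranges and a change of 0.23 (interval -0.69 to 1.14). Pan-neuronal genes gave no call in either direction (median 0.92), while 5 of 21 peripheral sensory genes and 6 of 11 crest genes rose, with Sox10 up by 3.04. Among the further dI3 and dI5 genes none rose and 3 of 8 fell, Lmx1b by 1.77.

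Between day 7 and day 9, Pou4f2 in the R cultures gave the only call. In B9 against B7 none passed, where 14.2% of all genes did, although the ranges of all 4 were separate, as were those of 36.7% of all genes. The log2 changes were -1.84 for Isl1, -1.59 for Tlx3, -0.97 for Pou4f1 and 0.77 for Pou4f2 (adjusted p = 0.11, 0.16, 0.15 and 0.55). A fit of the 6 B7 and B9 libraries alone called the first 3 of these. In R9 against R7 only Pou4f2 rose, with 78.7, 34.3 and 65.4 in R9, against 12.2, 9.36 and 3.18 in R7 (log2 change 2.79, adjusted p = 0.0087), where 20.3% of all genes passed, 9.14% upward. Without R7 number 3 its adjusted p was 0.054. Pou4f2 alone of the 4 was thus higher on day 9 than on day 7, with separate ranges, in both B and R cultures. In the B cultures the lowest B9 library (95.8) lay close to the highest B7 library (92.8), and the change did not pass. Of 8 pluripotency genes, several also rose in R9 against R7, while Sox2 and Klf4 did not pass. Among those that rose were Dppa5a (2.59, adjusted p = 0.0021), Esrrb (2.34, adjusted p = 0.0045) and Pou5f1 (2.73, adjusted p = 0.0068). None of the 8 passed in B9 against B7, where Pou5f1 changed by 0.90 (adjusted p = 0.44). The part of stem cell content in the Pou4f2 rise was not tested. In the M cultures Pou4f2 took no such step, with 6.80, 5.06 and 11.4 in M9, against 7.82, 3.68 and 10.4 in M7. None of the 4 passed in M9 against M7, where 4% of all genes did. The step between M5 and M7 gave 1 call, where 12.5% of all genes passed: Pou4f1 had 86.5, 204 and 552 in M7, against 71.1, 52.6 and 129 in M5, with overlapping ranges (log2 change 1.44, adjusted p = 0.031). That call ended without M5 number 1 or 2 or M7 number 2 or 3, and the change was 0.75 (adjusted p = 0.31) without M7 number 3. A fit of the 6 libraries alone did not call it either (adjusted p = 0.23). The 3 other tests of whether paths differ in a change over time called none of the 4: M with R from day 5 to day 7, where 11% of all genes passed, B with R from day 7 to day 9, where 0.098% did, and M with R from day 7 to day 9, where 11.9% did. The largest of these differences was -2.68 for Pou4f2, M with R from day 7 to day 9 (adjusted p = 0.095).

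When BMP4 was given with RA from day 3 for 48 h, Tlx3, Pou4f1 and Pou4f2 were on day 7 far below their B7 levels, and Isl1 was the gene that did not pass. The M and B cultures differ in both the start and the length of BMP4 treatment (48 h against 24 h). The 2 cannot be told apart in comparisons of M with B on the same day. In M7 against B7, where 41.6% of all genes passed, 19.9% downward, Tlx3 fell by 4.51 on the log2 scale (adjusted p = 1.6e-05), Pou4f2 fell by 3.39 (adjusted p = 0.00057) and Pou4f1 fell by 3.30 (adjusted p = 8.2e-07). Tlx3 had 38.0, 47.3 and 158 in M7, against 1459, 1348 and 1819.5 in B7. Pou4f1 had 86.5, 204 and 552 in M7, against 1894, 2201 and 2268 in B7. M7 number 3 was the highest M7 library for both genes and was also highest in Tubb3, with 1701, against 639 and 565 in the other 2. Isl1 had 111, 233 and 387 in M7, against 489.5, 664 and 733 in B7; its groups were separate, as were those of 51.4% of all genes, but its change of -1.52 (interval -3.09 to 0.05) did not pass (adjusted p = 0.11). A fit of these 6 libraries alone called it (adjusted p = 0.035).

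Against RA alone, the M cultures had more Isl1 and less Pou4f1 on each of days 5, 7 and 9. On day 5, where 44.3% of all genes passed, Isl1 had 156, 180 and 151 in M5, against 23.9, 67.5 and 45.6 in R5 (log2 change 1.92, adjusted p = 0.041). Pou4f1 had 71.1, 52.6 and 129 in M5, against 512, 783 and 649.9 in R5 (log2 change -3.01, adjusted p = 2.5e-06). The ranges of both genes were separate, as were those of 55.4% of all genes. The Isl1 call on day 5 was lost without any 1 of the M5 libraries or without R5 number 1 or 3 (adjusted p = 0.067 to 0.16), and with adjustment over the 16014 genes the authors tested (adjusted p = 0.059). On day 7, where 43.5% passed, Isl1 changed by 2.14 (adjusted p = 0.024) and Pou4f1 by -1.51 (adjusted p = 0.0067), with overlapping ranges for Pou4f1. That Pou4f1 value rests on M7 number 1, without which it was -0.86 (adjusted p = 0.13), and the Isl1 value was 1.49 (adjusted p = 0.16) without R7 number 3 and lost its call without M7 number 2 or 3 as well. A fit of the 6 libraries alone called neither (adjusted p = 0.065 for Isl1 and 0.14 for Pou4f1).

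On day 9 all 4 genes passed in M9 against R9, where 51% of all genes did, Isl1 upward and the others downward. Isl1 had 156, 152 and 201 in M9, against 33.9, 41.5 and 18.2 in R9 (log2 change 2.47, adjusted p = 0.0081). Tlx3 had 43.6, 30.8 and 73.0 in M9, against 353, 228 and 221 in R9 (log2 change -2.47, adjusted p = 0.0068). All M9 libraries were above the R9 range for Isl1 and below it for Tlx3, in a comparison in which 63.2% of all genes had separate ranges. Pou4f1 fell by 1.57 (adjusted p = 0.0044) and Pou4f2 by 2.77 (adjusted p = 0.0028). These 4 calls held without any 1 library. In M9 against B9, where 51.5% passed, 23.7% downward, Pou4f2 fell by 4.06, Tlx3 by 3.43 and Pou4f1 by 1.80, while Isl1 differed by -0.03 (interval -1.60 to 1.54, adjusted p = 0.98). The day 5 comparison of M with B gave 2 calls, where 17.8% of all genes passed: Tlx3 fell by 2.60 and Pou4f1 by 2.36 (adjusted p = 0.014 and 0.00033), and Isl1 was separate, as were 31.6% of all genes, but not called (1.11, adjusted p = 0.35). Leaving out B5 number 1, M5 number 1 or M5 number 2 ended the Tlx3 call (adjusted p = 0.055 to 0.088).

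**Figure D3:**
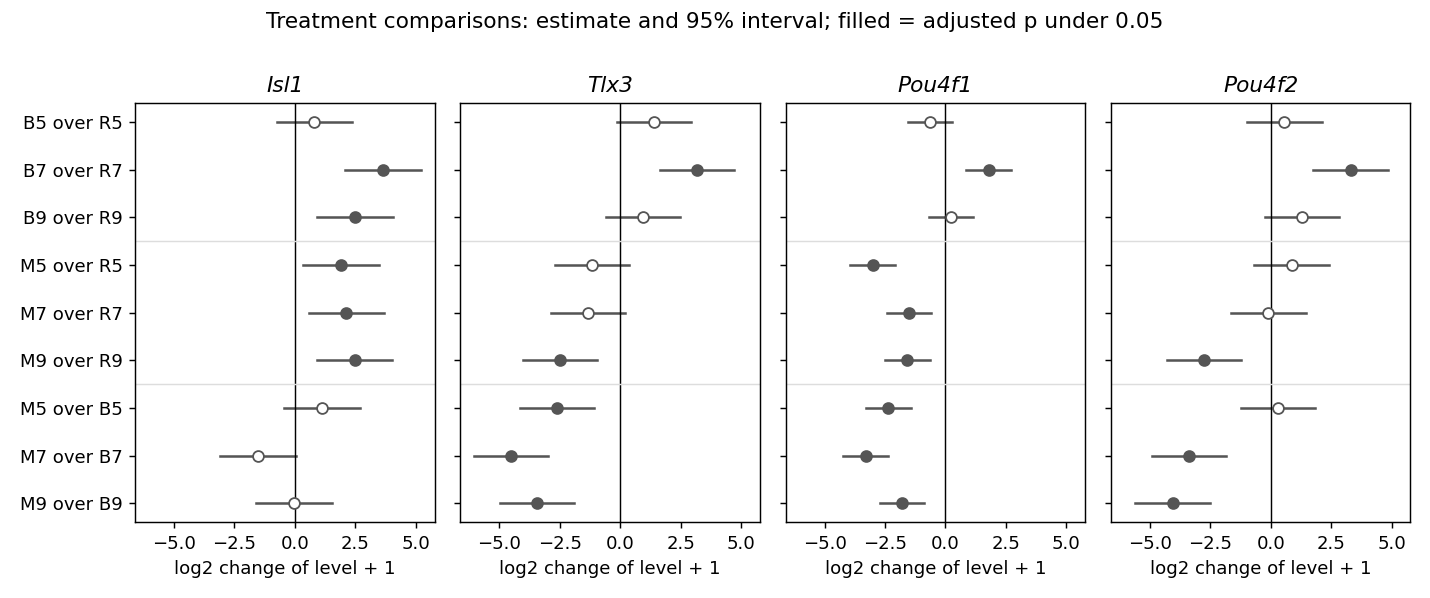
Log2 changes of the 4 genes in the comparisons between treatments on days 5, 7 and 9, with 95% intervals; filled points passed the test at an adjusted p under 0.05. The 4 genes lie together above 0 in B7 over R7 (1.79 to 3.65), while in M9 over R9 Isl1 lies at 2.47 and the other 3 between -2.77 and -1.57.

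The M cultures also differed from B and R in mesoderm genes, where Isl1 is known from cardiac progenitors. In M7 against B7, 11 of 13 cardiac progenitor genes rose and none fell (median 2.54), led by Tbx20 (4.39), and 6 of 9 lateral mesoderm genes rose and none fell (median 2.45), with Foxf1 up by 4.90 and Hand1 by 5.97. Over the same libraries 11 of 12 pan-neuronal genes fell (median -3.25): Ina fell by 3.22 and Stmn2 fell by 3.63. Cardiac list sums ran between 7979 and 13149 in M7, against 1496 and 1991 in B7 and 1327 and 1888 in R7. On day 5, lateral mesoderm sums ran between 16396 and 20991 in M5, against 5331 and 9388 in B5 and 1359 and 2950 in R5. Hand1 was up by 8.54 in M5 against R5, and B5 shared in this: in B5 against R5 Hand1 rose by 6.07, Gata5 by 3.80 and Hand2 by 2.78, and none of these 3 passed in M5 against B5, where 3 others of the 9 (Tbx4, Gata6 and Foxf1) rose. On day 9, 9 of 13 cardiac genes and 7 of 9 lateral mesoderm genes rose in M9 against R9, and 5 of 12 pan-neuronal genes fell. Of the heart muscle genes on the list, Tnnt2 had a group mean of 119 ± 45.6 in M7, against 13.8 ± 7.02 in B7 and 70.5 ± 37.7 in R7, and Myl7 had 53.8 ± 22.0 in M7, against 17.2 ± 9.68 in B7 and 4.20 ± 0.71 in R7 (SD, n = 3 each). The part of mesoderm cells in the Isl1 level of the M cultures was not tested.

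Set against the 12 pan-neuronal genes, Isl1 stood higher in the M cultures in each contrast, while the other 3 differed in direction between contrasts. The pan-neuronal mean was itself lower in M than in B and R on each day, so a gene of unchanged level stood higher on this measure. That mean was 6.55 in M5 and 8.24 in R5, 8.03 in M7, 11.2 in B7 and 9.72 in R7, and 8.14 in M9 and 9.32 in R9. In M7 against R7 the levels of Tlx3 and Pou4f2 changed by -1.35 and -0.09, and neither passed. In M7 minus R7 the difference was 3.83 for Isl1, 0.35 for Tlx3 and 1.60 for Pou4f2, all with separate ranges, and 0.18 for Pou4f1 with overlapping ranges. In M5 minus R5 it was 3.62 for Isl1, 2.56 for Pou4f2 and -1.31 for Pou4f1, all separate, and 0.51 for Tlx3 with overlapping ranges. In M7 minus B7 the difference was 1.69 for Isl1 and -1.31 for Tlx3, both with separate ranges, but -0.10 for Pou4f1 and -0.19 for Pou4f2, with overlapping ranges (exact permutation p = 0.90 and 0.70, two-sided). In M9 minus R9 it was 3.66 for Isl1, -1.29 for Tlx3 and -1.59 for Pou4f2, all separate, and -0.39 for Pou4f1 with overlapping ranges. In B9 minus R9, Isl1 stood 1.59 higher and Pou4f1 at -0.69, both separate, and Tlx3 differed by 0.04. In M5 minus B5 the difference was 2.14 for Isl1, -1.57 for Tlx3, 1.33 for Pou4f2 and -1.325 for Pou4f1, all separate. In M9 minus B9 it was 2.07 for Isl1, -1.33 for Tlx3 and -1.96 for Pou4f2, all separate, and 0.30 for Pou4f1 with overlapping ranges. In these contrasts, B5 minus R5 and B7 minus R7 included, Pou4f1 was separate in M5 minus R5, M5 minus B5 and B9 minus R9, lower in each.

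**Figure D4:**
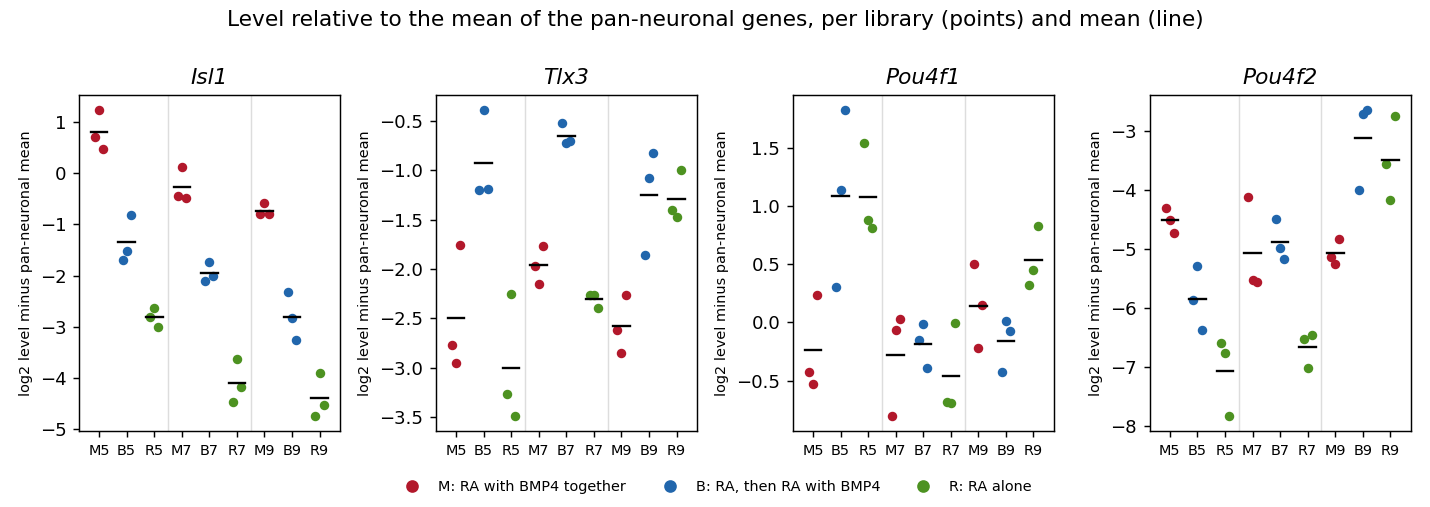
Log2 level of each gene minus the mean log2 level of 12 pan-neuronal genes, by library, for M, B and R cultures on days 5, 7 and 9; points are libraries and bars are means. Isl1 has group means of -0.27 in M7, -1.95 in B7 and -4.10 in R7, while Pou4f1 has -0.28 in M7, -0.18 in B7 and -0.46 in R7.

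Before day 5 the 4 genes were already present, and in D0 and D3 the levels of some differed widely between libraries of 1 group. In the libraries labelled day 3, Tlx3 had 125, 1668 and 1318 in numbers 1, 2 and 3, and Pou4f2 had 5.39, 122 and 113. Numbers 2 and 3, which were high in Tubb3, were the high ones for both. In D3 against D0, where 54.9% of all genes passed, Tlx3 was called at 1.83 (adjusted p = 0.038) and Pou4f2 at -2.04 (adjusted p = 0.022); with only D3 number 1 in its group, Tlx3 turned to -0.54 (adjusted p = 0.65). Leaving out any 1 of 5 of the 6 libraries ended the Tlx3 call, and leaving out D3 number 1 or D0 number 3 ended the Pou4f2 call. In R4 against D3, where 24.3% passed, 12.6% downward, Tlx3 was called at -3.12 and Pou4f2 at -2.50 (adjusted p = 0.0022 and 0.013). With only D3 number 1 these were -0.75 (adjusted p = 0.68) and 0.31 (adjusted p = 0.87). The Pou4f2 call there also ended without D3 number 2, D3 number 3 or R4 number 2, and fits of the compared libraries alone called neither gene in either comparison (adjusted p = 0.14 to 0.28). Pou4f2 in D0 had 132, 169 and 275, its highest group, with the highest value in the library richest in Pou5f1, and Isl1 had 246, 244 and 39.4 there, with the lowest value in that library.

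After 1 day of treatment the M cultures already differed. In M4 against R4, where 14.1% of all genes passed, Pou4f1 had 344, 155 and 196 in M4, against 728, 393 and 991 in R4 (log2 change -1.58, adjusted p = 0.015). The groups were separate, as were those of 26.1% of all genes, and the call ended without R4 number 1 or 3 or M4 number 2, and in a fit of the 6 libraries alone (adjusted p = 0.054 to 0.10). Isl1 had 266, 124 and 169 in M4, against 66.1, 39.6 and 55.8 in R4; it was separate but did not pass (1.73, adjusted p = 0.14). In the authors' deposited table the false discovery rate was 0.073 for Isl1 and 0.0034 for Pou4f1 in this comparison, so at their threshold of 0.1 Isl1 passed too. After 6 h of BMP4 none of the 4 passed, where 0.0178% of all genes did. Isl1 had 10.1, 81.8 and 132 in B6hr, against 17.9, 77.8 and 251 in R6hr, low in number 1 of both groups. The lateral mesoderm gene Hand1 was ordered alike, with 7.41, 133 and 259 in B6hr, against 5.05, 206 and 359 in R6hr. Without the number 1 libraries there was still no call among the 4.

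Across groups, Isl1 kept a pattern of its own. Pearson's r of group means on the log2 scale was 0.81 between Tlx3 and Pou4f2, 0.78 between Tlx3 and Pou4f1 and 0.53 between Pou4f1 and Pou4f2, but 0.32, 0.25 and -0.03 between Isl1 and Pou4f2, Tlx3 and Pou4f1. Without D0 and D3, over 13 groups, the first 3 values were 0.84, 0.84 and 0.65 and the others 0.32, 0.27 and -0.02. These values are descriptions of means that share 1 normalisation. Over all 15 groups, D0 and D3 included, the 5 genes nearest to Isl1 were Upk3b (0.85), a uroplakin gene of mesothelium, Fam222b (0.84), its paralogue Isl2 (0.84), Zfp654 (0.82) and Golgb1 (0.81). Those nearest to Tlx3 were the axonal adhesion gene L1cam (0.95), Lrrc4c (0.93), the secretogranin gene Scg2 (0.93), Cyp2u1 (0.93) and the neuronal kinesin gene Kif5a (0.93). Pou4f1 was nearest to Scg3 (0.96), Fam20c (0.96), Trak1 (0.94), Stmn3 (0.94) and Dock10 (0.93), and Pou4f2 to the G protein subunit gene Gng3 (0.98), the calcium channel subunit gene Cacnb1 (0.97), Dnajc6 (0.97), Tfr2 (0.96) and Necab3 (0.95). The genes nearest to Isl1 were thus less like it than those nearest to each of the other 3. Pearson's r takes no account of the size of a change. Group means ran from 1554 to 2091 for Fam222b and from 2306 to 3275 for Golgb1, against 31.2 to 629 for Isl1.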

How the data were processed

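Libraries were made from total RNA with an mRNA kit (NuGEN Universal plus) and read on a NovaSeq instrument, per the labels' protocols. The submitters' processing notes name Picard, edgeR and mm10; no aligner is named. The authors deposited 1 signal value per gene and library, a normalised level with no stated unit, which summed to between 12245725 and 15868724 per library over the listed genes. These sums are not depths, which are unknown, so no counting interval is given. The authors' deposited log2 fold changes and p-values were used as an alternative only, with their sign turned to the order given here. Columns headed fpkm in the deposited table were a compressed score of the same levels and were not used.

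Levels were tested as log2(level + 1) with limma 3.58.1 in R 4.3.3 (limma-trend, robust): 45 libraries in 1 fit, 15 groups, 30 residual degrees of freedom, genes at a level of at least 1 in 3 libraries, which kept all 11220, and 19 comparisons of 2 groups plus 4 differences of effects. The log2(level + 1) scale understates changes of low genes such as Pou4f2. The test was run on simulated data with independent normal noise for each gene. That simulation holds no unlike libraries within a group and no shared deviations, so it does not cover these features of the data. Intervals are 95% and cover the spread between libraries. Because the labels do not tie libraries to separate differentiations, p-values measure the spread between these libraries only. Promoters were matched by symbol (4 of 4) to the RefSeq table of GRCm38.p6.

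The members and marker lists were chosen with earlier results of these data known. Genes named are the 4 members, the 5 genes nearest to each over group means among genes whose highest group mean is at least 5, up to 4 called genes per list with the smallest adjusted p, markers used as checks, and Tubb3 and Pou5f1; Pou4f3, T, Sox10 and a few list genes that recur were added after their values were seen. Same-numbered libraries deviated together, with every correlation above 0.1, in R9 and R7 (0.506, 0.323 and 0.736), M9 and M7 (0.254, 0.279 and 0.269) and B6hr and R6hr (0.586, 0.189 and 0.465), and the replicate block changed no call of the 4 genes there. Alternatives were other pseudocounts (0.1 and 5), no filter or a filter at 10, quantile normalization, fits of the compared libraries alone, the block, adjustment over the 16014 genes the authors tested, the authors' test, and leaving out each library; fits without libraries that stood apart on days 0, 3 and 4.25 were added after seeing the data.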

Additional observations from a re-analysis of the deposited data

Results flagged for a closer look

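The change of Pou4f1 between day 5 and day 7 differed between the B and the R cultures by a test of the difference itself. The log2 change from B5 to B7 exceeded that from R5 to R7 by 2.44 ± 0.64 (SE, limma, adjusted p = 0.035). Pou4f1 had 1894, 2201 and 2268 in B7 and 525, 297 and 433 in B5, while it had 752, 834 and 365 in R7 and 512, 783 and 650 in R5. The call was lost without R5 number 2 or 3, B5 number 2 or 3, R7 number 3 or any 1 B7 library (adjusted p = 0.057 to 0.13). The same difference did not pass for the other 3 genes. Relative to the pan-neuronal genes, Pou4f1 had means of 1.09 in B5 and -0.18 in B7, and 1.08 in R5 and -0.46 in R7. It thus stood lower on day 7 in both paths on that measure. The part of the pan-neuronal rise in the flagged difference was not tested.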

How the results depend on the processing

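Other pseudocounts, the filters, the replicate block over all libraries and the authors' deposited test, read at 0.05 in the 8 comparisons they share, changed no call of the 4 genes; at the authors' own threshold of 0.1 their test also called Isl1 in M4 over R4 (0.073). With any 1 library left out, 4 calls stayed in B7 over R7, B7 over B5 and M9 over R9, and 3 in M7 over B7 and M9 over B9. The count ran from 1 to 2 in M5 over R5, M5 over B5, M7 over R7 and R4 over D3, and from 0 to 1 in B9 over R9, M7 over M5, M4 over R4, R9 over R7, D3 over D0, R7 over R5 and the differences of B7 over B5 and of M7 over M5 from R7 over R5. M7 over M5 had 1 call, Pou4f1 (1.44, adjusted p = 0.031). Quantile normalization gave 1 call in R7 over R5 and 1 in B9 over B7, and adjustment over the genes the authors tested gave 1 in M5 over R5 and 1 in D3 over D0. Fits of the compared libraries alone gave 0 calls in M7 over R7, M7 over M5, M4 over R4, R4 over D3 and D3 over D0, 2 in B9 over R9, 3 in B9 over B7 and 1 in the difference of M9 over M7 from R9 over R7. Such fits estimate the spread from the compared libraries only. They called 1475 genes of the table in B7 over R7 (2661 in the fit of all libraries) and 97 in B5 over R5 (672). With the replicate block within the compared libraries there were 0 calls in B7 over R7, M7 over R7, R4 over D3, D3 over D0 and the B7 over B5 difference from R7 over R5, 1 in M5 over B5, and 2 each in B9 over R9, B9 over B7, M7 over M5 and M4 over R4. In none of these comparisons of 2 groups did all 3 same-numbered pairs deviate together with a correlation above 0.1. Single pairs did, as in M7 over M5 numbers 1 and 3 (0.573 and 0.536) but not number 2 (-0.003). For B7 over R7 the adjusted p of the 4 genes with this block was 0.077 to 0.094, in a fit that called no gene of the table. With D3 number 1 alone, R4 over D3 had 0 calls, with Pou4f2 at 0.31, and D3 over D0 had 1, with Tlx3 at -0.54. With D0 number 3 alone, D3 over D0 had 1 call. The cause of these changes was not tested. Groups of 3 libraries limit the precision throughout.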
